A study of Mus musculus with 2 samples.

Results

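F-box, Kelch and cullin genes encode the interchangeable parts of cullin-RING ubiquitin ligases, and their transcripts were compared between denervated and control mouse muscle. The set held every gene whose name in the array files starts with Fbxo, Fbxl, Fbxw, Klhl or Kbtbd, or with Cul and a digit, apart from the atrophy genes Fbxo32, Fbxo30 and Fbxo40. It comprised 105 of 22258 named genes, covered by 197 probes. By name, 32 were Fbxo, 20 Fbxl, 13 Fbxw, 23 Klhl, 10 Kbtbd and 7 Cul genes.

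The animals were wild-type male C57BL/6 mice. Denervation was done at 7 weeks of age and lasted 14 days, and gastrocnemius of both groups was sampled at 9 weeks. How the muscle was denervated is not given in the sources used here. The control sample is titled sham but is elsewhere called only control, so whether those animals underwent surgery is unclear. RNA from 6 mice per group was pooled, and each pool was hybridised to 1 single-colour Agilent array. With 1 array per group no difference has a replicate check and no test was possible. In whole muscle, fewer cells of a type and less RNA per cell cannot be told apart.

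In a cullin-RING ligase the cullin scaffold holds a RING protein at its base and a substrate receptor at its other end. Cul1 takes F-box proteins through the linker Skp1, and Cul3 takes Kelch proteins directly through their BTB domain. The receptor decides which protein is ubiquitinated. Fbxl proteins read their substrates with leucine-rich repeats, Fbxw proteins with WD40 repeats, and Fbxo proteins with other domains. Striated muscle has Kelch proteins of its own, among them Klhl31, Klhl40 and Klhl41, and mutations of the latter pair cause nemaline myopathy.

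Values are the scanner's processed intensities, given for control and then denervated muscle. Each array was scaled to its own 75th percentile, which was 788 for control and 1063 for denervated muscle, before a difference was taken. Differences are log2, denervated minus control. The figure after ± is the scanner software's technical error carried through both arrays, not a replicate error. A 2-fold difference was the threshold. Where a gene has several probes, the brightest one measured on both arrays gives its value.

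All 8 skeletal muscle markers were bright, the dimmest at 140004 and 116274, with differences from -0.72 to -0.21. Their direction depended on scaling, since 4 lay above 0 and 4 below with spike-in scaling. Of 8 macrophage markers, 7 passed 2-fold upward (0.84 to 3.53), and their summed intensity was 14611 for control and 56049 for denervated muscle. Endothelial markers ran from -1.12 to -0.34 (sums 24436 and 19713) and smooth muscle markers from -0.81 to -0.54 (sums 310880 and 286504). Most of the smooth muscle sums came from Acta2 alone, at 302075 and 279691. Fibroblast markers ran from 0.07 to 0.63 (sums 148042 and 229507) and Schwann cell markers from -1.67 to 0.69 (sums 2831 and 3112). No marker on these lists was at background, and their part in the differences described here was not tested.

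Promoter windows are shown first for the 4 members past 2-fold with exactly 1 window in RefSeq. Each holds the 250 bases before the RefSeq start, 5′ to 3′ on the gene's strand, with GRCm38.p6 coordinates. Capitals mark matches on either strand to the E-box letters CAGCTG or CACCTG, a kind of site that myogenic factors bind, or to GTAAACA, a FoxO site.

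Fbxl22 (chr9:66514594-66514843, minus strand): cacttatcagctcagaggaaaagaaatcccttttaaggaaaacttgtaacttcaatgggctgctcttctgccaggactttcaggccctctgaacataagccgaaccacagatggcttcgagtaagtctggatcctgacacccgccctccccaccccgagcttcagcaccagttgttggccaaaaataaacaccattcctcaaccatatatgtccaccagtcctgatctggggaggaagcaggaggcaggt
Fbxl2 (chr9:114026752-114027001, minus strand): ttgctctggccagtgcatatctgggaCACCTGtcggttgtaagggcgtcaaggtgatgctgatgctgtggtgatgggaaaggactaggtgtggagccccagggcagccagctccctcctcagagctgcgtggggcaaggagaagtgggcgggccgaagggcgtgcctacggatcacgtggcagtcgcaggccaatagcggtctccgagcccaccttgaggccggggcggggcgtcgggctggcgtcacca
Fbxw17 (chr13:50417614-50417863, plus strand): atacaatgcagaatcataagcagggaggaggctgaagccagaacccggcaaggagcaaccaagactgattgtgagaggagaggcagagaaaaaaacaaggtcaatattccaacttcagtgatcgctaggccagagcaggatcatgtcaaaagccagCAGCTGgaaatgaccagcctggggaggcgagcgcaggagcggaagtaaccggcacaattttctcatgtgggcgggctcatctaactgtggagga
Kbtbd1, today Klhl31 (chr9:77636482-77636731, plus strand): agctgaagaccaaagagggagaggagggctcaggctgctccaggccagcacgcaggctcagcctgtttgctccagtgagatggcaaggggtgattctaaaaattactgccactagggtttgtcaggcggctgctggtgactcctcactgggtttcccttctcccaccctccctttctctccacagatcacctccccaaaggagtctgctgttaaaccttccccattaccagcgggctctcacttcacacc

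The Fbxl2 window held CACCTG and the Fbxw17 window CAGCTG, whereas those of Fbxl22 and Klhl31 held none of these letters. Over the set, 82 members had 116 windows, of which 21 (18.1%) held CAGCTG, 19 (16.4%) CACCTG and 2 (1.72%) GTAAACA. Among all 32851 windows of this length the shares were 13%, 17.2% and 3.17%. A match describes letters in a window only.

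Most of these genes were detected in muscle and few passed 2-fold. Of the 105, 95 (90.5%) were measured on both arrays, that is, well above background and not saturated, against 71.0% of all named genes. Upward, 4 of the 95 passed 2-fold, namely Fbxl22, Fbxl2, Klhl5 and Fbxw17, where 6.9% of all 15807 measured genes did. Downward, 4 passed it, namely Kbtbd1 (Klhl31), Fbxo9, Fbxl10 (Kdm2b) and Klhl23, where 8.58% of all genes did. Counting both directions, the totals were 8 members (8.42%) and 2447 genes (15.5%). For each family and list below, the all-gene shares to compare are 6.9% upward and 8.58% downward. With spike-in scaling they are 14.5% and 4.14%. The median difference was -0.08 for members and -0.11 for all genes, and 64.2% of members lay within 0.5 of 0, against 56.3% of all genes.

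**Figure D1:**
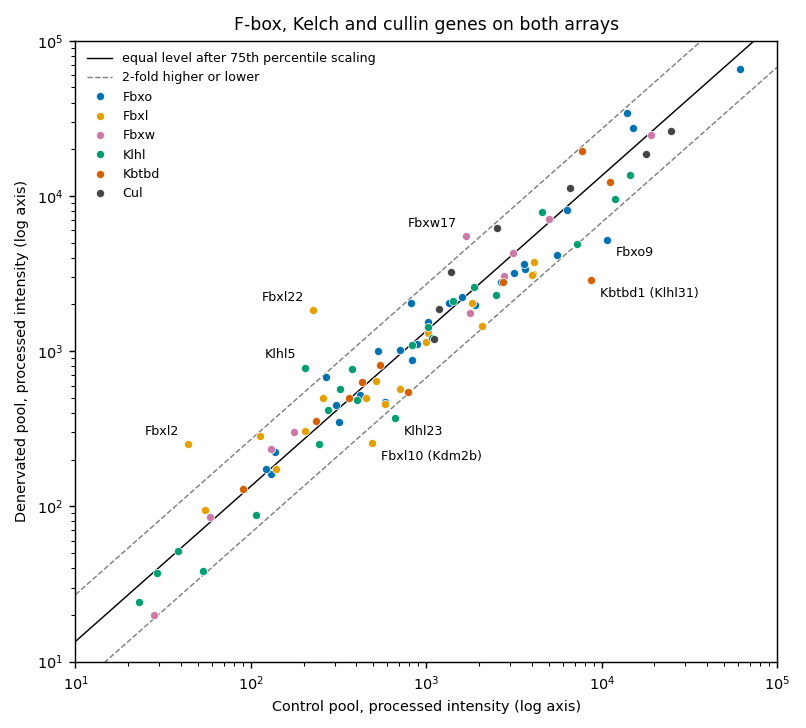
Processed intensity of 95 F-box, Kelch and cullin genes in control (x axis) and denervated muscle (y axis), both on log axes, with 1 point per gene coloured by name family. The solid line marks equal level after scaling and the dashed lines 2-fold; 4 genes lie above the upper dashed line and 4 below the lower one.

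Small differences had no settled direction, because scaling moved all of them together. Scaling to 8 spike-in control probes raised every difference by 0.40, and leaving the arrays unscaled raised it by 0.43. Of the members, 42 lay above 0 with percentile scaling, 70 with spike-in scaling and 73 unscaled, so 31 members changed sign in the last case. Spike-in scaling put 12 members past 2-fold upward (14.5% of all genes) and 2 downward (4.14%). Without scaling the counts were again 12 (15.3%) and 2 (3.9%). The 8 members gained in both cases were Kbtbd5 (Klhl40), Fbxo17, Fbxl8, Fbxo4, Cul4b, Fbxo31, Cul7 and Klhl2. Kdm2b and Klhl23 came inside 2-fold, at -0.97 and -0.87 with spike-in scaling.

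**Figure D2:**
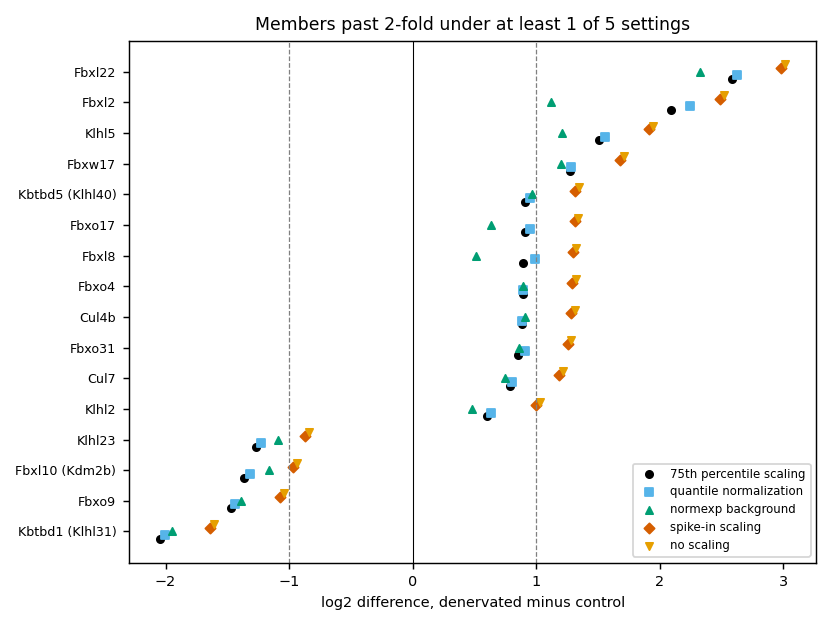
Log2 difference (x axis) of the 16 members past 2-fold under at least 1 of 5 settings, with a symbol for each setting and dashed lines at 2-fold. Spike-in scaling and no scaling move every gene to the right, which takes 8 further genes past 2-fold and brings Kdm2b and Klhl23 inside it.

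The cullin scaffolds came first among the roles, and none of the 7 passed 2-fold. With percentile scaling 4 lay above 0 and 3 below (median 0.23), and with spike-in scaling all 7 lay above 0. Cul4b, an X-linked scaffold of the ligases built on Ddb1, read 2516 and 6256 (0.88 ± 0.20), while its dimmer probe read 819 and 1171 (0.08). Its relative Cul4a read 6569 and 11252 (0.34 ± 0.20), with dimmer probes at 0.18 and -0.16. Cul7, which pairs with the F-box protein Fbxw8, read 1388 and 3230 (0.79 ± 0.20). Cul4b and Cul7 had the highest values of the 7, and both passed 2-fold with spike-in scaling. Fbxw8 itself read 130 and 233 (0.41 ± 0.21).

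Cul1, the scaffold of F-box ligases, read 1175 and 1857 (0.23 ± 0.20), and its 3 probes spanned 0.17 to 0.35. Cul3, the scaffold of Kelch ligases, read 25000 and 26188 (-0.37 ± 0.20), with a dimmer probe at -0.30. Cul5, which takes SOCS-box receptors, read 17948 and 18754 (-0.37 ± 0.20), and its 4 probes spanned -0.37 to 0.28. Cul2, which serves the von Hippel-Lindau receptor, read 1110 and 1200 (-0.32 ± 0.20), with a dimmer probe at -0.70. The last 3 scaffolds lay between 0.03 and 0.08 with spike-in scaling, so their sign depends on the scaling.

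Among leucine-rich-repeat receptors, 2 of 19 measured Fbxl genes passed 2-fold upward and 1 downward. Of the family, 13 lay below 0, with a median of -0.22, which became 0.18 with spike-in scaling. Fbxl22, a Z-disc F-box protein of striated muscle linked to turnover of alpha-actinin and filamin, had the highest difference of all members. Its brightest probe (chromosome 9, 66312232 to 66312291, mm8) read 227 for control and 1837 for denervated muscle, a 6-fold higher level (2.58 ± 0.21). Its dimmer probe read 43.1 and 59.2, a difference of 0.03, so the call rests on 1 of 2 probes. Taking the smallest-difference probe of each gene, 3 members passed 2-fold upward and 4 downward, against 5.76% and 7.45% of all genes, and Fbxl22 was the one lost.

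Fbxl2, an F-box protein anchored to membranes, read 44.0 for control and 253 for denervated muscle, 4.26-fold higher (2.09 ± 0.23; chromosome 9, 113826982 to 113827041, mm8). Its other probe read 10.9 and 36.2 and was above background in denervated muscle only. The control signal was low: normexp background correction gave 1.12, and the gene was no longer counted when signals had to reach 4 times the lowest detected one. Next in the family came Fbxl8 (113 and 284, 0.89 ± 0.21) and Fbxl6 (258 and 502, 0.53 ± 0.21), both short of 2-fold.

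At the lower end stood Fbxl10, today Kdm2b, a histone demethylase with an F-box that brings a Polycomb complex to CpG islands. It read 487 for control and 255 for denervated muscle (-1.37 ± 0.21; chromosome 5, 123131960 to 123132019, mm8). Its dimmer probes gave -1.37 and -1.63, so all 3 lay past 2-fold. Its paralogue Fbxl11 (Kdm2a) read 993 and 1152 (-0.22 ± 0.20). Fbxl17, which dismantles faulty BTB dimers, read 4025 and 3102 (-0.81 ± 0.20), and its 3 dimmer measured probes lay past 2-fold, between -1.48 and -1.29.

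Fbxl5, the iron-sensing receptor for iron regulatory protein, read 2069 and 1457 (-0.94 ± 0.20), with dimmer probes at -0.97 and -0.43. Fbxl21 was not well above background on either array. Fbxl14, a receptor for Snail, read 4059 and 3129 (-0.81 ± 0.20), but its dim probe gave -0.07. Fbxl4, a mitochondrial member, read 4097 and 3754 (-0.56 ± 0.20). By brightest probe, Fbxl5, Fbxl14 and Fbxl4 stayed below 0 with spike-in scaling. Fbxl20 and Fbxl19 had probes on opposite sides of 0, at -0.26 and 0.28 for the former and at 0.15 and -0.31 for the latter. The other 7 measured Fbxl genes lay between -0.78 (Fbxl7) and 0.34 (Fbxl13).

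**Figure D3:**
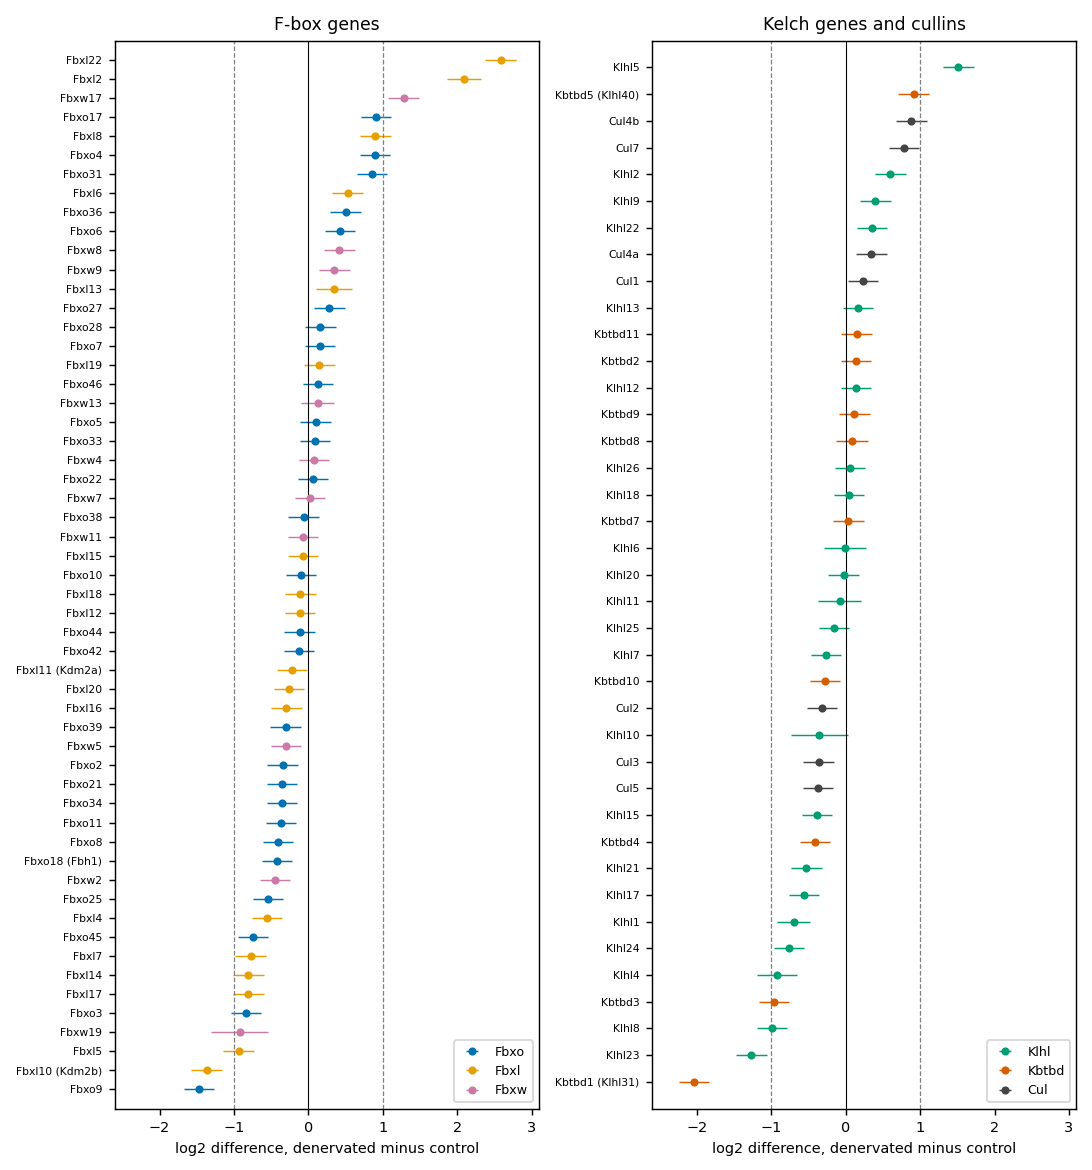
Log2 difference (x axis) of members measured on both arrays, 55 of the 56 F-box genes on the left and 39 Kelch genes and cullins on the right, ordered by value, with current symbols in brackets. Bars are the scanner's technical error, not replicate error, and dashed lines mark 2-fold; most points lie between them.

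Among WD40-repeat receptors, 1 of 10 measured Fbxw genes passed 2-fold upward and none downward, with a median of 0.05 (0.45 with spike-in scaling). Fbxw17 read 1681 for control and 5503 for denervated muscle, 2.43-fold higher (1.28 ± 0.20; chromosome 13, 50446160 to 50446219, mm8), and its other probe was not well above background. Fbxw7, the receptor for cyclin E, Myc and Notch, read 3126 and 4282 (0.02 ± 0.20), with a second probe at 0.06. Fbxw11 (beta-TrCP2), a receptor for inhibitor of NF-kappaB and for beta-catenin, read 19138 and 24553 (-0.07 ± 0.20). The dimmer Fbxw11 probe gave -0.30, and with spike-in scaling Fbxw7 lay at 0.42 and Fbxw11 at 0.33. Fbxw4 read 5016 and 7138 (0.08 ± 0.20) and Fbxw5 2775 and 3032 (-0.30 ± 0.20). Fbxw2 lay at -0.45 ± 0.20 with 4 probes from -0.45 to 0.31, and Fbxw9 at 0.35 ± 0.21 with a dim probe at -0.52.

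A group of Fbxw genes lies together on chromosome 9, and they are close copies of each other, so their probes may share signal and their values are uncertain. Fbxw16 read 3.01 and 137 and was above background in denervated muscle only. Set against the lowest detected control signal, it was at least 7-fold higher there. Fbxw14 read 36.8 and 12.8 and was above background in control muscle only, at least 2.77-fold higher there. Among all genes detected on 1 array only, 41.1% of those in denervated and 33.6% of those in control muscle had a bound of 2-fold or more. Fbxw15 (23.9 and 17.2) and, outside the group, Fbxo41 (17.4 and 13.4) were detected in control muscle only, with bounds under 2-fold. Fbxw13 lay at 0.12 ± 0.23 and Fbxw19 at -0.92 ± 0.38. With no filter on dim probes, 5 of the 105 passed 2-fold upward and 6 downward, against 7.08% and 11.7% of all genes, the additions being Fbxw16 upward and Fbxw14 and Fbxo15 downward.

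Among the Fbxo genes, none of 27 measured members passed 2-fold upward and 1 did downward. The median was -0.10, or 0.30 with spike-in scaling, and 12 lay above 0. The lower one was Fbxo9, a receptor for the Tel2 and Tti1 partners of the kinase mTOR. It read 10730 for control and 5212 for denervated muscle (-1.47 ± 0.20; chromosome 9, 77867342 to 77867401, mm8), from a single probe, and was past 2-fold under every setting tried. Fbxo3, which recognises Fbxl2, read 5539 and 4183 (-0.84 ± 0.20), with dimmer probes at -0.65 and -1.05. Fbxo45, a synaptic F-box protein, read 584 and 469 (-0.75 ± 0.20).

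Another 3 Fbxo genes lay just under the upper threshold and passed it with spike-in scaling. Fbxo17 read 269 and 682 (0.91 ± 0.21). Fbxo4, a receptor linked to cyclin D1, read 817 and 2043 (0.89 ± 0.20), with a dim probe at 0.20. Fbxo31, also a receptor for cyclin D1, read 14000 and 34139 (0.85 ± 0.20).

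Fbxo17 belongs to the Fbxo genes with an FBA domain, which lets several of them bind glycoproteins. That group was not uniform in direction with percentile scaling. Fbxo6 read 15120 and 27306 (0.42 ± 0.20), with a dimmer probe at 0.69, and Fbxo27 read 137 and 225 (0.28 ± 0.21). Fbxo44 read 131 and 163 (-0.12 ± 0.21). Fbxo2 read 61844 and 65598 (-0.35 ± 0.20), with dimmer probes at -0.87 and -0.12. Fbxo17, Fbxo6 and Fbxo27 lay above 0 with percentile and with spike-in scaling. Fbxo2 and Fbxo44 lay below 0 with the former and above it, at 0.05 and 0.28, with the latter.

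Several other Fbxo genes stayed inside 2-fold. Fbxo7, which works with Parkin in mitochondrial quality control, read 1025 and 1541 (0.16 ± 0.20). Fbxo21 read 2652 and 2802 (-0.35 ± 0.20), and its 3 probes ran from -0.35 to 0.35. Fbxo25, a close relative of Fbxo32, read 3672 and 3395 (-0.55 ± 0.20), with a dim probe at -0.49. Fbxo5 (Emi1), an inhibitor of the anaphase-promoting complex, was dim at 121 and 175 (0.10 ± 0.21). Probes lay on opposite sides of 0 for Fbxo28, Fbxo33, Fbxo42 and Fbxo46, whose brightest probes gave 0.16, 0.09, -0.13 and 0.13. The remaining 9 measured Fbxo genes lay between -0.42 (Fbxo18, today Fbh1) and 0.50 (Fbxo36). Fbxo15, Fbxo16, Fbxo24 and Fbxo43 were not well above background on either array.

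The 3 atrophy genes left out of the set give a scale for these values. Fbxo32 (atrogin-1) read 11941 and 46661 (1.53 ± 0.20), Fbxo30 987 and 3154 (1.24 ± 0.20) and Fbxo40 5341 and 8377 (0.22 ± 0.20). By brightest probe, Fbxl22 and Fbxl2 had larger differences than Fbxo32. That order did not hold under every setting: with normexp correction Fbxl2 lay at 1.12 and Fbxo32 at 1.59, and by the mean of its probes Fbxl22 lay at 1.30.

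Among the 32 measured Kelch genes, 1 passed 2-fold upward and 2 downward, with 14 above 0 and a median of -0.06, or 0.35 with spike-in scaling. Klhl31, named Kbtbd1 in the files, is a muscle gene whose loss causes myopathy in mice. It read 8739 for control and 2861 for denervated muscle, 4.12-fold lower (-2.04 ± 0.20; chromosome 9, 77441369 to 77441428, mm8). This was the lowest value among the measured members, it came from a single probe, and it was -1.64 with spike-in scaling.

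Klhl40, named Kbtbd5 in the files, protects nebulin and leiomodin 3 from breakdown. It read 7722 for control and 19604 for denervated muscle (0.91 ± 0.20; chromosome 9, 121629380 to 121629439, mm8), short of 2-fold, and lay at 1.31 with spike-in scaling. Klhl41, named Kbtbd10, also acts on nebulin and read 11114 and 12340 (-0.28 ± 0.20, or 0.12 with spike-in scaling). The 3 muscle Kelch genes thus differed from one another: Klhl31 was past 2-fold lower, Klhl40 was higher but short of 2-fold, and Klhl41 had no settled direction.

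A list of 5 genes chosen as possible partners of muscle Kelch proteins was measured too. Of these, 1 passed 2-fold upward, against 6.9% of all genes. Leiomodin 2 (Lmod2) read 1154 and 5569 (1.84 ± 0.20). Leiomodin 3 (Lmod3) lay at -0.33 ± 0.20 and nebulin (Neb) at -0.32 ± 0.20, both above 0 with spike-in scaling. Fxr1 lay at 0.47 ± 0.20 and Nrap at 0.03 ± 0.20.

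Klhl5 was the Kelch gene past 2-fold upward. It read 204 for control and 785 for denervated muscle, 2.85-fold higher (1.51 ± 0.21; chromosome 5, 65446643 to 65446702, mm8), and its second probe was not well above background. Klhl23 read 659 for control and 369 for denervated muscle, 2.41-fold lower (-1.27 ± 0.20; chromosome 2, 69635859 to 69635918, mm8). Its second measured probe gave -1.52, and a further one was above background in control muscle only (44.6 and 16.8).

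Just inside the lower threshold lay Klhl8, Kbtbd3 and Klhl4. Klhl8 has been linked to turnover of rapsyn, the protein that clusters acetylcholine receptors. It read 7256 and 4917 (-0.99 ± 0.20), but its second probe read 1036 and 1620 (0.21), so its direction depends on the probe. Kbtbd3 read 786 and 543 (-0.97 ± 0.20), and its second probe, at 163 and 77.6, was past 2-fold. Klhl4 was dim at 53.5 and 38.2 (-0.92 ± 0.27).

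Other Kelch genes with known substrates stayed inside 2-fold. Klhl24, which controls intermediate filament turnover, read 11971 and 9496 (-0.77 ± 0.20), with both dimmer probes at -0.31. Klhl21, a Cul3 adaptor of mitosis, read 14542 and 13602 (-0.53 ± 0.20). Its mitotic counterparts Klhl9 and Klhl13 read 320 and 570 (0.40 ± 0.20) and 275 and 416 (0.16 ± 0.21), the latter with a dim probe at -0.33. Klhl21 lay below 0 and Klhl9 above it with percentile scaling. With spike-in scaling Klhl21 came near 0, at -0.13, and Klhl9 lay at 0.80. Klhl2, a receptor for WNK kinases, read 377 and 773 (0.60 ± 0.20) and just reached 2-fold with spike-in scaling. Klhl12, which acts on the COPII coat, read 1415 and 2096 (0.13 ± 0.20). Klhl6, a gene of lymphoid cells, was dim at 38.2 and 51.4 (-0.01 ± 0.28).

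Probes lay on opposite sides of 0 for Klhl7, Klhl13, Klhl15, Klhl18, Klhl20, Klhl22, Klhl25 and Kbtbd9 (Klhl29). Klhl7 gave -0.26 and 0.61, Klhl22 gave 0.35 and -0.24, and Klhl25 gave -0.16 and 0.26. The lowest of the Kelch genes not named above was Klhl1 (107 and 88.6, -0.70 ± 0.22). Klhl14 was not well above background on either array.

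A further 10 genes carry one of these family names today but another name in the files, and are not counted among the 105. Of the 6 measured, Klhl30 read 16205 and 48281 (1.14 ± 0.20) and Klhl38 read 1164 and 3311 (1.08 ± 0.20), both past 2-fold upward under every scaling tried, although Klhl38 was at 0.96 with normexp correction. Klhl28, Klhl32, Klhl36 and Fbxw21 lay between -0.63 and -0.17. These genes were looked up after earlier values had been seen.

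Probes of a gene did not always give the same difference. Of 52 members with at least 2 measured probes, 20 had probes on opposite sides of 0 and 6 had probes on different sides of 2-fold. Over all 5936 such genes the counts were 1708 and 817. The 6 members were Fbxl17, Fbxl22, Fbxo3, Kbtbd2, Kbtbd3 and Kbtbd11. Kbtbd11 lay at 0.15 by its brightest probe and at 1.76 by a dim one that read 15.8 and 72.2. Kbtbd2, a regulator of insulin signalling through phosphoinositide 3-kinase, lay at 0.14 and, by a probe that read 98.2 and 328, at 1.31. The median gap between highest and lowest probe was 0.40 for members and 0.29 for all genes.

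**Figure D4:**
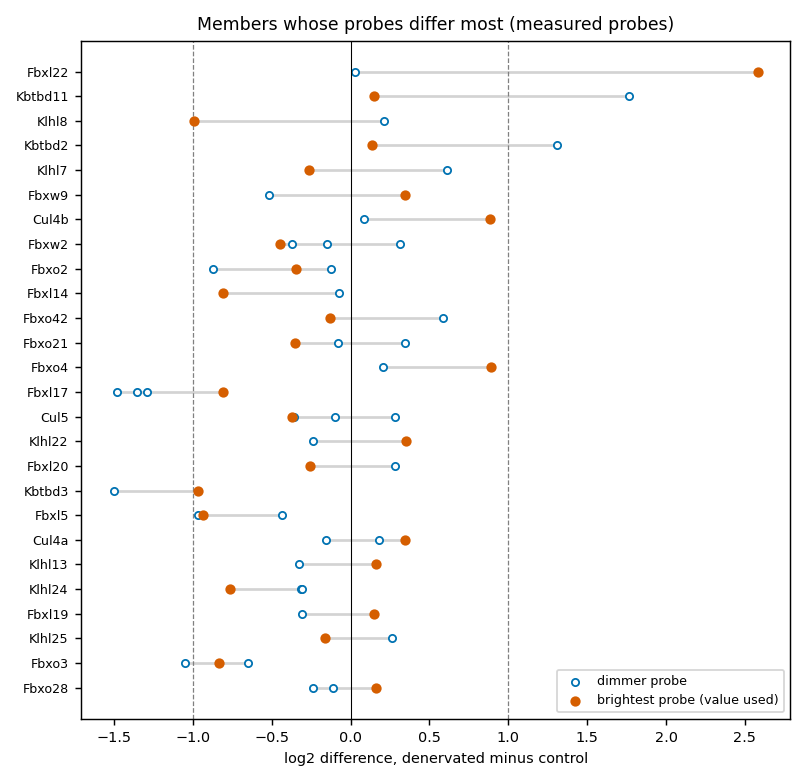
Log2 difference (x axis) of each measured probe for the 26 members whose probes differ most. The brightest probe, which gives the reported value, is filled and dimmer probes are open; Fbxl22 spans 0.03 to 2.58.

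The shared machinery was measured in lists chosen by role. The list of core genes held 8, with a median of 0.07, and 1 passed 2-fold in each direction. Ddb1, the linker of Cul4, read 1904 and 5607 (1.13 ± 0.20), and Skp1, the linker of F-box proteins, read 14808 and 33187 (0.73 ± 0.20). The gene past 2-fold downward was Ankrd9, which is a substrate receptor and not a core subunit. Ankrd9 read 13089 and 4324 (-2.03 ± 0.20). By brightest probe, no core subunit on the list passed 2-fold downward. The RING protein Rbx1 lay at 0.12 by that measure, but its 3 probes spanned -1.40 to 0.14. Probes of Eloc spanned -0.82 to 0.02. With spike-in scaling Skp1 also passed 2-fold.

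Cullins are switched on by attachment of Nedd8 and off by its removal. Among 13 genes of neddylation and receptor exchange none passed 2-fold upward and 1 did downward, with a median of 0.07. The counts became 1 and 0 when the arrays were scaled to spike-ins. The gene past 2-fold downward was Dcun1d1, which helps load Nedd8 onto cullins, at 11035 and 6299 (-1.24 ± 0.20, or -0.84 with spike-in scaling). The exchange factor Cand1 lay at 0.84 ± 0.20, with probes spanning -0.53 to 0.84, and Dcun1d2 at -0.62 ± 0.20. All 9 measured genes of the COP9 signalosome, which removes Nedd8, lay within 0.5 of 0 by brightest probe with percentile scaling, from -0.27 (Cops8) to 0.45 (Cops2), with Cops5, its catalytic subunit, at 0.19. With spike-in scaling all 9 lay above 0, with a median of 0.51 and Cops2 at 0.85. Probes of Cops2 spanned -0.37 to 0.45, those of Cops7b -0.63 to 0.15 and those of Cops5 0.19 to 0.56.

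Adaptors under other names served as a comparison. Of 17 Kelch and BTB adaptors, 2 passed 2-fold upward and 2 downward by brightest probe, against 6.9% and 8.58% of all genes. They were Kctd7 (1.94 ± 0.21), Kctd13 (1.04 ± 0.21), Rhobtb2 (-1.21 ± 0.20) and Rhobtb3 (-1.09 ± 0.20). Normexp correction brought Kctd13 inside 2-fold, at 0.77. With spike-in scaling 6 passed upward and none downward (14.5% and 4.14% of all genes), with Rhobtb2 at -0.81 and Rhobtb3 at -0.69. Probes spanned -1.21 to -0.28 for Rhobtb2, -1.09 to -0.63 for Rhobtb3 and 0.83 to 1.94 for Kctd7. Those of Ivns1abp, at 0.89 by its brightest, spanned 0.89 to 3.03. The spans were 0.63 to 1.06 for Kctd5 and -0.67 to 0.45 for Ipp. Of 5 F-box genes none passed 2-fold, and the largest values were those of Lrrc29 (0.71 ± 0.22), Lmo7 (-0.41 ± 0.20) and Ccnf (0.22 ± 0.28). Probes of Lmo7 spanned -1.27 to -0.41 and those of Lrrc29 0.11 to 0.71, and Lrrc29 passed 2-fold with spike-in scaling. Of 29 measured receptors of other cullins, 7 (24.1%) passed 2-fold downward and none upward, against 8.58% and 6.9% of all genes. All of the 7 except Dcaf4 were SOCS-box genes named Asb, so the share does not describe the list's other receptors. The median of the 29 was -0.32. Spike-in scaling moved that median to 0.08 and left 7 past 2-fold downward, against 4.14% of all genes. The lowest were the SOCS-box genes Asb12 (5451 and 1123, -2.71 ± 0.20), Asb15 (6024 and 1625, -2.32 ± 0.20) and Asb4 (5085 and 1562, -2.14 ± 0.20). The probes of Asb15 spanned -2.32 to -1.24.

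**Figure D5:**
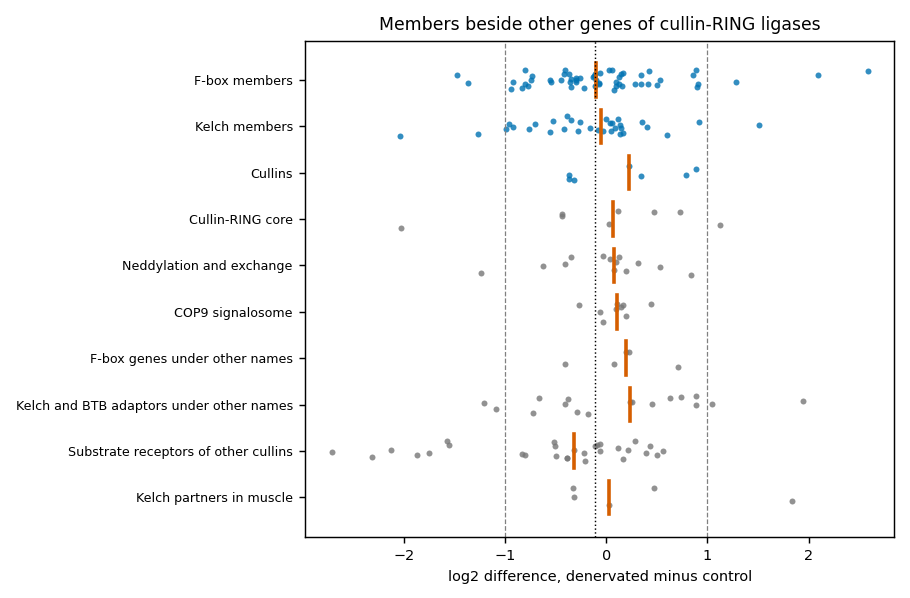
Log2 difference (x axis) of F-box, Kelch and cullin members (blue) and of other cullin-RING ligase genes (grey), 1 point per gene, with each list's median as an orange bar. The dotted line is the median of all genes at -0.11 and dashed lines mark 2-fold; 7 receptors of other cullins lie below the lower dashed line.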

How the data were processed

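The scanner intensity of every spot came from Agilent Feature Extraction, version 9.5 by the submitters' processing notes and 9.5.3.1 per the file headers, already background-corrected within the array. The authors also deposited a table of whole-number values, read here as a score. Against the scanner files these were intensities scaled so that the 75th percentile of all spots is 100 (coefficient of variation of the ratio 0.0679% and 0.0673%). That table served as an alternative.

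Marked spots were left out (87 and 81). Log2 values had the 75th percentile of 41174 non-control probes subtracted. The lowest detected signal was 14.5 (control) and 17.9 (denervated). Probe positions are mm8, with no annotation of that build used here. RefSeq (GRCm38.p6) accessions named 94 of the 105 members, and its synonyms gave Klhl41 and Klhl29. The synonyms also gave Chuk for Fbxo24, which was not used, and Fbxo24 kept its name in the files. Calculations used Python 3.11.15, and limma 3.58.1 in R 4.3.3 for normexp (offset 50). They were tested on simulated data. The number of arrays, 1 per group, limits precision. The median technical error was 0.20.

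The members and lists were chosen with earlier results of these data known. Named genes are members past 2-fold or with such a bound, the 2 brightest of each family, members fixed for their role, members whose probes disagree, and 3 genes per list. The values of 1 member are not reported here. Any other gene was named after its values were seen. Alternatives covered scaling, background, filters, marked spots and probe choice.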

Additional observations from a re-analysis of the deposited data

How the results depend on the processing

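Scaling moved the counts most. With spike-in scaling 12 members passed 2-fold upward and 2 downward (median 0.32), and without scaling again 12 and 2 (median 0.35). The all-gene shares were 14.5% and 4.14% with spike-in scaling and 15.3% and 3.9% without scaling. Under the other settings tried, the upward count ran from 3 to 5 and the downward count from 4 to 6. Those counts are of 95 members, or 88 where signals had to reach 4 times the lowest detected one and 105 with no filter. Over all 15807 measured genes, loess centring gave 1273 upward and 1077 downward, and quantile normalization 1248 and 1092. The all-gene shares were 7.08% and 11.7% with no filter and 5.76% and 7.45% with the smallest-difference probe. For the remaining settings no all-gene count is given here. Loess centring added Fbxl8 upward. The authors' deposited table added Fbxw19 downward, and the mean of measured probes added Fbxl17 and Kbtbd3. Leaving out the chromosome 9 Fbxw group was a choice made after seeing the data. It could not change the main counts, since none of the 8 members past 2-fold there belongs to the group. It would take Fbxw19 out of the count with the deposited table, and Fbxw16 and Fbxw14 out of those with no filter. No member past 2-fold changed sign. Dim control signal limits Fbxl2 and the Fbxw group. No paired analysis was possible because each group has 1 array, and for the same reason no replicate could be left out.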

Other observations

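Among receptors of other cullins, the remaining genes past 2-fold downward were Asb11 (22331 and 8219, -1.87), Asb14 (17447 and 6958, -1.76), Asb10 (23359 and 10704, -1.56) and Dcaf4 (2893 and 1308, -1.58). Asb18 read 79.6 and 13.3 and was detected in control muscle only, at least 6-fold higher there. Asb2 (-0.06) and Asb5 (-0.21) lay near 0 and turned positive with spike-in scaling. These genes were named after their values were seen.

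Probes of Fbxo2 that overlap only in part gave very different intensities. The probe at chromosome 4, 147009989 to 147010048, mm8, read 61844 and 65598, and the probe at chromosome 4, 147009946 to 147010005, mm8, read 465 and 343. Their differences were -0.35 and -0.87.

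By mean intensity, 5 of 39 members between 100 and 1000 passed 2-fold in either direction (12.8%, against 16.9% of all genes there), and 3 of 38 between 1000 and 10000 did (7.89%, against 13.6%). Above 10000 none of 10 members did (15.6% of all genes), and below 100 none of 8 (16.2%). These shares describe the 2 arrays and were not tested.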
